A study of Mus musculus with 6 samples.

Results

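The 10 genes described here encode heat shock chaperones of the cytosol: Hspa1a, Hspa1b and Hspa8 of the Hsp70 family, Hsph1 of the Hsp110 family, Hsp90aa1 and Hsp90ab1 of the Hsp90 family, the J-domain co-chaperones Dnajb1 and Dnaja1, and the small heat shock proteins Hspb1 and Cryab. They were chosen by symbol, and all 10 were among the 24346 gene symbols listed for each library. All 10 also lay above the filter on low values, which 13122 genes passed (at least 1 FPKM in at least 3 libraries). The libraries were made from the hippocampus of C57BL/6 mice aged 12 months. Wild-type animals gave 3 libraries (WT 1 to WT 3) and TonEBP+/- animals, which carry 1 disrupted allele of the gene for the transcription factor TonEBP, gave 3 (HET 1 to HET 3). Heterozygotes were mated to give both genotypes as littermates, after backcrossing to C57BL/6J for 5 to 6 generations. The disrupted stretch of the gene is not stated in the labels, nor is whether each library came from 1 animal, so p-values measure the spread between these libraries, which may be technical. Values are given in FPKM (fragments counted relative to transcript length and to library depth), which were read from the deposited log2 values and are not a unit that the labels name.

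Cytosolic chaperones bind unfolded or partly folded proteins. Hsp70 proteins work in cycles of ATP hydrolysis that J-domain proteins start and that Hsp110 proteins help to reset by nucleotide exchange, Hsp90 matures kinases and steroid receptors, and small heat shock proteins hold unfolded clients without ATP. Some of these genes are transcribed in every cell, whereas others are induced by heat shock factor 1, which binds heat shock elements made of inverted GAA units. Hspa1b, a major inducible Hsp70 gene, is also known as a target of TonEBP (encoded by Nfat5) in cells exposed to hypertonic medium, where TonEBP binds a motif called TonE. Neurons are known for a weak heat shock response and for a high level of the constitutive Hsc70, the product of Hspa8. On this basis Hspa8, Hsp90ab1 and Dnaja1 were taken as constitutive (3 genes) and the other 7 as inducible, although Cryab, Hspb1 and Hsph1 are also made in unstressed brain cells. Hsp90aa1, classed as inducible, had a mean of 627 FPKM here, above the constitutive Hsp90ab1 at 325 FPKM. The classes rest on what is known of the genes and not on their levels in these libraries.

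Stretches around the start of transcription are shown where they matched the inverted GAA units that heat shock factor 1 is known to bind. RefSeq promoter sequences (GRCm38.p6, 250 bases before to 50 after each start) were matched for 6 of the 10 genes. Hspa8, Hsp90aa1, Hsp90ab1 and Cryab were not matched. Each line runs 5′ to 3′ on the strand of the gene, with GAANNTTC or TTCNNGAA, a pair of inverted units, in capitals. Hspa1a, Hspa1b and Hspb1 are shown from base 130 to base 51 before the start (chr17:34972207-34972286, minus strand; chr17:34959289-34959368, minus strand; and chr5:135887789-135887868, plus strand). Dnaja1 is shown from base 135 to base 106 before a start (chr4:40722333-40722362, plus strand), and Hsph1 from base 8 to base 37 after a start (chr5:149636279-149636308, minus strand).
Hspa1a: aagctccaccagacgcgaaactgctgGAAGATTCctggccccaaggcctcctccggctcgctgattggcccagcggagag
Hspa1b: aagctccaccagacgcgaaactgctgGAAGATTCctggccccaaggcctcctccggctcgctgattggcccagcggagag
Hspb1: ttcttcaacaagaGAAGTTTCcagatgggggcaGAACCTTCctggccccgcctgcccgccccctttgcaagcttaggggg
Dnaja1: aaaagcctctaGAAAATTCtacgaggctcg
Hsph1: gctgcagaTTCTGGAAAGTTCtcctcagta

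The Hspa1a and Hspa1b windows were identical over all 80 bases, and the full 250 bases before the 2 starts differed at 3 positions. Both held 1 pair of inverted units at bases 104 to 97 before the start, and on the reverse strand a CCAAT box at bases 67 to 63. Dnaja1 held 1 pair at the start shown, at bases 124 to 117 before it, and none at its 2 other listed starts. Hspb1 held 2 pairs, at bases 117 to 110 and 97 to 90 before the start. In Hsph1 the units overlapped to form the longer GAANNTTCNNGAA (on the reverse strand, bases 16 to 28 after the start shown), and a separate TTCNNGAA lay at bases 54 to 47 before that start. No pair of inverted units was found in the 300 bases around either listed start of Dnajb1, which says only that these letters are not in this window. Searched on both strands, GAANNTTC was present in 7.86%, TTCNNGAA in 8.52%, CCAAT in 37.4% and either inverted pair in 15.1% of all 32851 promoters of this length in the table, and GAANNTTCNNGAA in 0.603%. The TonE motif had a match in Hspb1 (reverse strand, bases 118 to 108 before the start, overlapping the first pair) and in Hsph1 (overlapping the longer element), against 4.96% of all promoters. It had no match in the 300 bases of Hspa1a or Hspa1b. A match of letters is a description and not a binding site.

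Nfat5 (chromosome 8, 107293470 to 107379517, GRCm38) was at 10.5, 8.39 and 9.72 FPKM in WT 1 to WT 3 and at 8.25, 9.31 and 8.42 FPKM in HET 1 to HET 3, with overlapping ranges. This whole-gene value does not check the labels, since transcripts of a disrupted allele may still be counted, and every direction given here takes the genotype labels as they stand. Estimated from the step between low values, a library held about 7740000 (HET 1) to 12540000 (HET 3) fragments. Marker lists of hippocampal neurons had no member at 0, with Prox1 at 11.2 to 14.6 FPKM and Neurod6 at 99.3 to 117 FPKM. Libraries differed in markers of neighbouring tissue. The choroid plexus gene Ttr ran from 87.4 FPKM in HET 2 to 3338 FPKM in HET 3, and 10 thalamus markers summed to 287.9 to 329.5 FPKM in 4 libraries but to 188.2 FPKM in HET 2 and 181.9 FPKM in HET 3. In bulk tissue, fewer cells of a type and less RNA per cell cannot be told apart.

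The hippocampus libraries held a small number of very abundant chaperone transcripts and a group of scarce inducible ones. Hspa8, the constitutive Hsc70 gene, had the highest level, with a mean of 1066 ± 54.2 FPKM (SD, n = 6). Hsp90aa1 followed at 627 ± 25.2 FPKM and Hsp90ab1 at 325 ± 17.3 FPKM (SD, n = 6 each). These 3 genes made up 89.3% to 90.0% of the summed FPKM of the 10 members in each library. The sum itself stayed between 2143 FPKM (HET 1) and 2299 FPKM (HET 3). Compared with all genes tested, 99.6% had a lower mean than Hspa8 and 6.68% a lower mean than Hspa1a.

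A middle group consisted of Hsph1 (71.2 ± 2.49 FPKM), Dnaja1 (64.6 ± 2.53 FPKM) and Cryab (63.5 ± 5.43 FPKM; SD, n = 6 each), whose ranges overlapped. Hsph1 lay above Dnaja1 in 6 of 6 libraries, whereas Dnaja1 lay above Cryab in 3 of 6, so the last 2 could not be put in order. Dnajb1 came next at 20.3 ± 2.68 FPKM, then Hspb1 at 6.66 ± 1.74 FPKM, Hspa1b at 2.42 ± 0.439 FPKM and Hspa1a at 1.55 ± 0.442 FPKM (SD, n = 6 each). Hspa1b lay above Hspa1a in 5 of 6 libraries. Inducible members therefore covered mean levels from 1.55 to 627 FPKM, and constitutive members from 64.6 to 1066 FPKM, so that the classes were not separated by level.

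**Figure D1:**
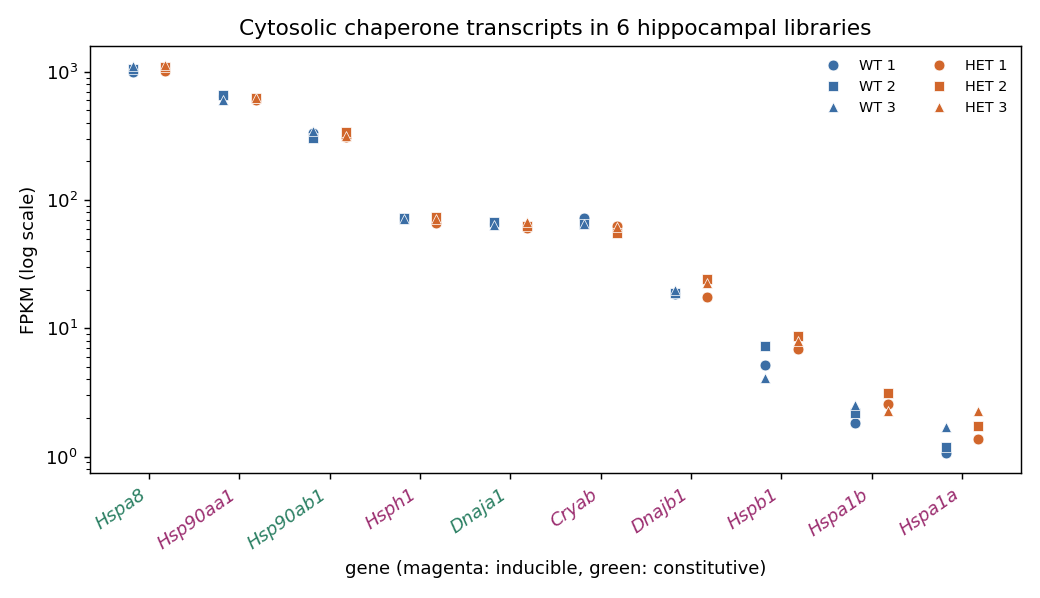
FPKM on a log scale (vertical) of each of the 10 genes (horizontal, in order of mean level) in the 3 wild-type (blue) and 3 TonEBP+/- (orange) libraries, where the marker shape gives the replicate number. Hspa8 sits near 1066 FPKM and Hspa1a near 1.55 FPKM, and the genotypes lie close together for the abundant genes.

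Between the genotypes, 0 of the 10 members passed an adjusted p of 0.05 (limma, Benjamini-Hochberg over 13122 genes), and 0% of all genes tested did. At an unadjusted p under 0.05, 1 member (Hspb1) was counted, beside 3.69% of all genes tested. Of the 10 members, 5 had a higher and 5 a lower mean in TonEBP+/- libraries, the same split as among all genes tested (50% higher). The median log2 difference (TonEBP+/- minus wild type) was 0.15 over the 7 inducible members and -0.02 over the 3 constitutive members, against 0.00 over all genes tested. The inducible median was 0.06 without HET 2 and -0.03 with a filter on a mean of 5 FPKM, which removes Hspa1a and Hspa1b. The constitutive median was 0.02 without WT 3 and 0.0057 without HET 1, so that neither sign held throughout. The genotypes did not overlap in 1 member, Cryab, beside 8.52% of all genes tested (4.39% lower and 4.13% higher in TonEBP+/- libraries). Each member's adjusted p in limma was 1, and the smallest p that the exact permutation test can give for 3 against 3 libraries is 0.1.

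**Figure D2:**
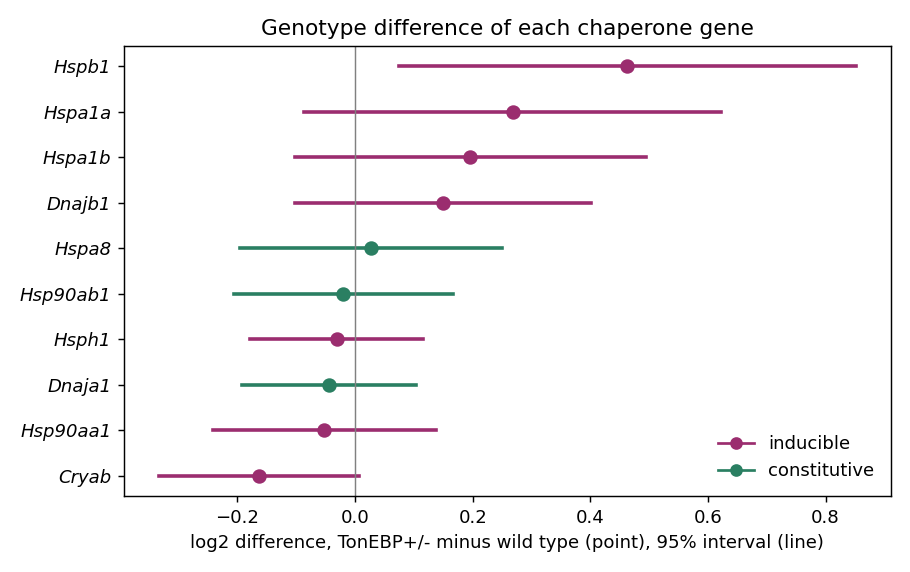
Log2 difference, TonEBP+/- minus wild type, of each gene (points, log2(FPKM + 1) scale) with its 95% interval from limma (lines), inducible genes in magenta and constitutive genes in green. The interval of Hspb1 (0.07 to 0.85) lies above 0 before adjustment over all genes, and the other 9 intervals include 0.

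Hspa1a and Hspa1b encode the inducible Hsp70 itself. Hspa1a (chromosome 17, 34969190 to 34972156) was at 1.06, 1.19 and 1.70 FPKM in WT 1 to WT 3 and at 1.38, 1.72 and 2.27 FPKM in HET 1 to HET 3. The mean was higher in TonEBP+/- libraries, with overlapping groups, since WT 3 lay above HET 1. The log2 difference was 0.27 (SE 0.159, 95% interval -0.09 to 0.62, limma adjusted p = 1; two-sided exact permutation p = 0.2). It was 0.15 without HET 3, and 0.42 with a pseudocount of 0.1. Hspa1b (chromosome 17, 34956436 to 34959238) was at 1.82, 2.20 and 2.54 FPKM in wild-type libraries and at 2.57, 3.12 and 2.26 FPKM in TonEBP+/- libraries. HET 1 and HET 2 lay above all wild-type libraries and HET 3 lay within their range. Its log2 difference was 0.20 (SE 0.133, 95% interval -0.10 to 0.49, limma adjusted p = 1; exact permutation p = 0.2), and 0.11 without either WT 1 or HET 2.

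The pair cannot be fully separated by sequence. Of the 50-base windows of the Hspa1a transcript, 58.8% also occur in the Hspa1b transcript, and no other pair of members shared such a window in its longest coding transcript. No source used here says how reads shared between copies were assigned, so the value of either gene alone is uncertain. The ratio of Hspa1b to Hspa1a was 1.72, 1.86 and 1.49 in WT 1 to WT 3, 1.87 and 1.81 in HET 1 and HET 2, and 0.996 in HET 3, which stood apart. Their sum was 2.88, 3.39 and 4.24 FPKM in wild-type libraries and 3.95, 4.85 and 4.53 FPKM in TonEBP+/- libraries. HET 1 thus lay below WT 3, and fitted as 1 gene the sum had a log2 difference of 0.28 (SE 0.129, limma adjusted p = 1). At the estimated depth, Hspa1a rested on about 30 to 85 fragments per library and Hspa1b on about 53 to 80, for which counting alone gives a relative error of 10.9% to 18.2% and of 11.2% to 13.7%. On the opposite strand the annotation places the predicted gene Gm20481 across Hspa1a, and whether counting used strand is not given.

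Hspa8 (chromosome 9, 40800984 to 40810087), the constitutive member of the same family, was at 994, 1058 and 1118 FPKM in WT 1 to WT 3 and at 1013, 1093 and 1123 FPKM in HET 1 to HET 3. The groups ran over nearly the same range, and the log2 difference was 0.03 (SE 0.0994, 95% interval -0.20 to 0.25, limma adjusted p = 1). The sign of this difference turned with quantile normalization (-0.04) and without WT 1 (-0.02) or HET 3 (-0.0042). Hspa8 exceeded the sum of Hspa1a and Hspa1b 264- to 346-fold in wild-type libraries and 225- to 256-fold in TonEBP+/- libraries. Of 6 ratios computed between members, this was the only one whose genotypes did not overlap, and it was not tested. Among all single genes tested 8.52% did not overlap, and no such share was computed for ratios. The ratio rests on the scarce Hspa1a and Hspa1b, whose sum overlapped between genotypes. Hsph1 (chromosome 5, 149614287 to 149636376), the Hsp110 gene and a nucleotide exchange factor of Hsp70, was at 72.0, 72.4 and 71.5 FPKM in the wild-type group and at 66.3, 73.4 and 71.7 FPKM in TonEBP+/- libraries. Only HET 1 departed from the others, and the log2 difference was -0.03 (SE 0.0657, 95% interval -0.18 to 0.12), turning to 0.01 without HET 1.

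The Hsp90 pair consists of an isoform known as stress-inducible, Hsp90aa1, and the constitutive Hsp90ab1. Hsp90aa1 (chromosome 12, 110690605 to 110702728) was at 648, 665 and 603 FPKM in WT 1 to WT 3 and at 601, 620 and 625 FPKM in HET 1 to HET 3. WT 1 and WT 2 lay highest and WT 3 lay among the TonEBP+/- libraries (log2 difference -0.05, SE 0.0846, 95% interval -0.24 to 0.14). Hsp90ab1 (chromosome 17, 45567775 to 45573271) was at 334, 302 and 345 FPKM in the wild-type group and at 311, 340 and 316 FPKM in TonEBP+/- libraries. The TonEBP+/- values lay inside the wild-type range (log2 difference -0.02, SE 0.0833, 95% interval -0.21 to 0.17), and the sign turned without WT 3 or HET 1 (0.02 and 0.01). The inducible isoform had the higher level per length in 6 of 6 libraries. The ratio of Hsp90aa1 to Hsp90ab1 was 1.96 ± 0.228 in wild-type and 1.91 ± 0.0770 in TonEBP+/- libraries (SD, n = 3 each), with overlapping groups.

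Among the J-domain co-chaperones, Dnajb1, an inducible partner of Hsp70, had the wider spread. Dnajb1 (chromosome 8, 83608193 to 83612653) was at 18.5, 19.0 and 19.9 FPKM in WT 1 to WT 3 and at 17.4, 24.4 and 22.7 FPKM in HET 1 to HET 3. HET 2 and HET 3 lay above all wild-type libraries and HET 1 lay below them, so the TonEBP+/- group enclosed the wild type. The log2 difference was 0.15 (SE 0.112, 95% interval -0.10 to 0.40, limma adjusted p = 1; exact permutation p = 0.4). It was 0.29 without HET 1 and 0.06 without HET 2. Dnaja1 (chromosome 4, 40722150 to 40737149) was at 65.0, 67.9 and 64.0 FPKM in the wild-type group and at 60.9, 63.1 and 66.9 FPKM in TonEBP+/- libraries. Its groups overlapped (log2 difference -0.04, SE 0.0661, 95% interval -0.19 to 0.10). Dnaja1 exceeded Dnajb1 3.44 ± 0.189 times in wild-type and 3.01 ± 0.457 times in TonEBP+/- libraries (SD, n = 3 each), lowest in HET 2 at 2.59.

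**Figure D3:**
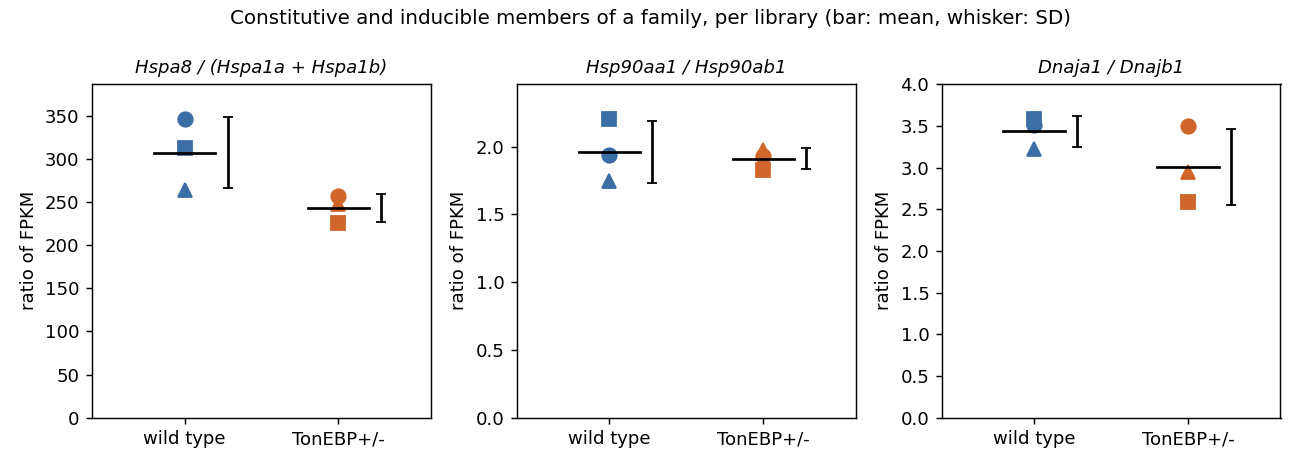
Ratio of FPKM (vertical, from 0) in each library by genotype (horizontal), with the mean (bar) and SD (whisker, n = 3) and marker shapes for replicates 1 (circle), 2 (square) and 3 (triangle). The ratio of Hspa8 to the summed Hspa1a and Hspa1b ran from 264 to 346 in wild-type and from 225 to 256 in TonEBP+/- libraries, while the Hsp90 and J-domain ratios overlapped. None of these ratios was tested.

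The small heat shock genes Hspb1 and Cryab had genotype differences of opposite sign. Hspb1 (chromosome 5, 135887919 to 135889563), which encodes Hsp25, a small chaperone known to act on actin filaments, was at 5.16, 7.31 and 4.06 FPKM in WT 1 to WT 3 and at 6.84, 8.67 and 7.94 FPKM in HET 1 to HET 3. HET 2 and HET 3 lay above all wild-type libraries and HET 1 lay below WT 2. The group means were 5.51 ± 1.65 and 7.82 ± 0.918 FPKM (SD, n = 3 each), a ratio of 1.42. The log2 difference was 0.46 (SE 0.171, 95% interval 0.07 to 0.85, unadjusted p = 0.0248, limma adjusted p = 1; exact permutation p = 0.2). It lay between 0.30 (without WT 3) and 0.65 (without WT 2) when 1 library was left out. About 36 to 93 fragments per library stood behind these values, with a relative counting error of 10.4% to 16.7%.

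Cryab (chromosome 9, 50751325 to 50756636), the gene of alpha B-crystallin, which oligodendrocytes and astrocytes are known to make, was at 72.2, 64.7 and 64.6 FPKM in WT 1 to WT 3 and at 62.8, 55.6 and 61.3 FPKM in HET 1 to HET 3. All 3 TonEBP+/- libraries lay below all 3 wild-type libraries, with a gap of less than 2 FPKM between WT 3 and HET 1. The ratio of the means was 0.891 and the log2 difference -0.16 (SE 0.0761, 95% interval -0.33 to 0.01, limma adjusted p = 1; exact permutation p = 0.1). Without WT 1 or HET 2 it was -0.11 in each case. Among all genes tested, 4.39% showed the same separation in the same direction. The annotation places Hspb2 on the opposite strand, overlapping Cryab. Hspb2 was at 0.287 to 0.836 FPKM in the 6 libraries, far below Cryab.

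Lists of cell type markers were set beside these values, library by library. Leaving out HET 2, the 5 other libraries had the same order in Hspb1 and in 8 choroid plexus markers (WT 3, WT 1, HET 1, WT 2, HET 3 from low to high). With HET 2 included, these orders differed. Leaving out HET 1 instead, Hspb1 and the meningeal markers shared an order (WT 3, WT 1, WT 2, HET 3, HET 2 from low to high). HET 1 was the lowest library in the meningeal markers (mean log2 difference from wild type -0.12). A different library was left out for each list, and over all 6 libraries neither list had the order of Hspb1. These matches are therefore a description only. The choroid plexus markers summed to 285 to 2907 FPKM in wild-type and 100.1 to 3474 FPKM in TonEBP+/- libraries, with 5 of 8 members higher in mean in TonEBP+/- libraries and 0 of 8 at 0. HET 2, the library with the most Hspb1, was the lowest in choroid plexus markers (mean log2 difference from wild type -1.72) and the highest in mural (0.54) and meningeal (0.57) ones. The 7 mural markers summed to 68.0 to 90.3 FPKM in wild-type and 68.7 to 104 FPKM in TonEBP+/- libraries (6 of 6 tested higher in mean, 0 at 0), and the 8 meningeal markers to 54.6 to 74.0 and 57.4 to 94.5 FPKM (7 of 7 tested higher in mean, 0 at 0). Of the TonEBP+/- libraries, only HET 2 lay above the wild-type mean of the mural markers (HET 1 -0.14, HET 3 -0.07). In the meningeal markers HET 3 did so as well (0.29). HET 2 was also the lowest library in both Cryab and 10 oligodendrocyte markers (mean log2 difference -0.33). These markers summed to 4034 to 4266 FPKM in wild-type and 3258 to 4560 FPKM in TonEBP+/- libraries, with 9 of 10 lower in mean and 0 at 0. HET 1 and HET 3 lay above the wild-type mean of these markers (0.08 each). Apart from HET 2, the libraries did not stand in the same order in Cryab and in the oligodendrocyte markers. WT 1, the highest in Cryab, had the lowest sum of these markers among wild-type libraries. The 8 astrocyte markers were lowest in HET 2 (-0.05) and highest in HET 1 (0.16). They summed to 1610 to 1699 FPKM in wild-type and 1637 to 1868 FPKM in TonEBP+/- libraries, with 5 of 8 higher in mean and 0 at 0. HET 2 and HET 3, which lay above all wild-type libraries in Hspb1 and in Dnajb1, were also low in the 10 thalamus markers. Their mean log2 differences from wild type were -0.67 and -0.76, against 0.06 in HET 1, and 10 of 10 markers were lower in mean. The part of these cell types and of thalamus content in the Hspb1, Dnajb1 and Cryab values was not tested.

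**Figure D4:**
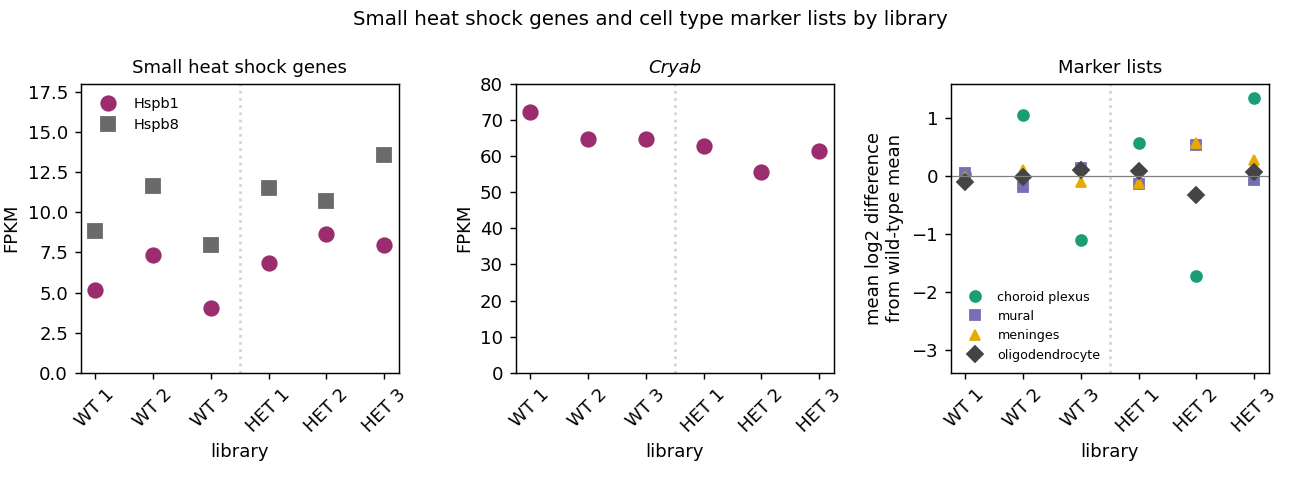
FPKM of Hspb1 and Hspb8 (left) and Cryab (middle), and the mean log2 difference of 4 marker lists from their wild-type mean (right), in each library (horizontal; a dotted line separates the genotypes). Hspb1 is highest in HET 2 at 8.67 FPKM, where Cryab is lowest at 55.6 FPKM and the choroid plexus list lies at -1.72.

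Inducible members covered a wider range of spread between libraries than the constitutive ones. The SD within genotype on the log2 scale was 0.28 for Hspb1, 0.22 for Hspa1a, 0.18 for Dnajb1 and 0.17 for Hspa1b, but 0.05 for Hsph1 and 0.06 for Hsp90aa1. Constitutive members lay between 0.06 (Dnaja1) and 0.08 (Hspa8 and Hsp90ab1), and the median over all genes tested was 0.12. Since scarce transcripts vary more, each member was set beside the 500 tested genes closest in mean level, which were not matched in transcript length. A smaller SD was found in 95% of these for Hspb1 and 89% for Dnajb1, in 69.2% for Hspa1a and 55.4% for Hspa1b, and in 17.6% for Hsph1 and 13% for Hsp90aa1. For the constitutive Hspa8, Hsp90ab1 and Dnaja1 the shares were 26.8%, 32.8% and 18.4%, and for Cryab 53%. This is a description of 10 chosen genes and not a test of the classes. Counting error (10.4% to 16.7% for Hspb1) is part of these SDs, and its share was not tested.

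**Figure D5:**
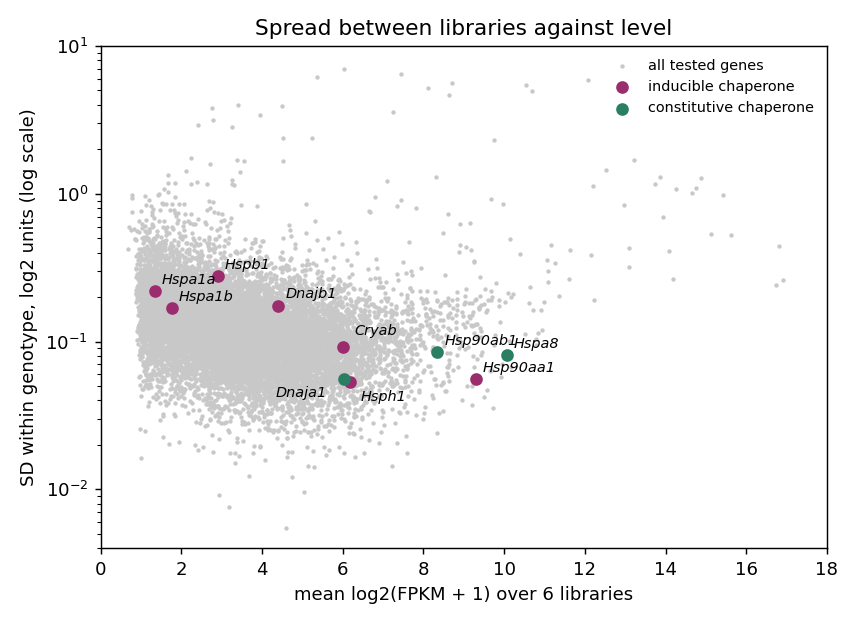
SD within genotype of the log2 values (vertical, log scale) against the mean log2(FPKM + 1) over 6 libraries (horizontal) for the 13122 genes tested (grey), with inducible (magenta) and constitutive (green) chaperone genes named. Hspb1 (0.28) and Dnajb1 (0.18) lie high for their level, and Hsph1 (0.05) and Hsp90aa1 (0.06) low.

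No pair of members passed the test for moving together across the 6 libraries. Of 45 pairs, 29 had a positive and 16 a negative Pearson r, and 0 passed an adjusted p of 0.05 over the 45 (exact permutation; smallest adjusted p = 0.781 for Pearson and 0.5 for Spearman; 2 Pearson pairs had an unadjusted p under 0.05). The 21 pairs of inducible genes had a median r of 0.13. The copies Hspa1a and Hspa1b had r = 0.47 (rho = 0.60, exact permutation p = 0.347 and 0.242, adjusted p = 0.822 and 0.725), and r = 0.80 without WT 1 and HET 3. Taken as deviations from the genotype means, their r was 0.18. Hspa1a and Hspa8 had r = 0.85 (rho = 0.89, exact permutation p = 0.0389 and 0.0333, adjusted p = 0.781 and 0.5), with r = 0.69 without the same libraries and 0.93 as deviations from the genotype means. Hspa1b and Cryab had r = -0.91 (rho = -0.83, exact permutation p = 0.0347 and 0.0583, adjusted p = 0.781 and 0.578). This relation rests on WT 1 and HET 2, since r was 0.11 without them, and it was -0.87 as deviations from the genotype means. Averaged over the 7 inducible genes as units of each gene's SD, HET 1 was lowest (-0.57) and HET 2 highest (0.51). Early response genes sensitive to handling were lowest in HET 1 as well (mean log2 difference from wild type -0.44, 10 genes summing to 134 to 151 FPKM in wild-type and 104 to 152 FPKM in TonEBP+/- libraries, 7 of 9 tested lower in mean, 0 at 0). HET 2 was the next lowest (-0.15). Of the 9 early response genes tested, 4 did not overlap between genotypes, beside 8.52% of all genes tested, and 3 had an unadjusted p under 0.05, beside 3.69%. None of the 9 passed an adjusted p of 0.05 in limma, and the part of handling in the chaperone values was not tested.

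Among 9187 other genes at a mean of at least 5 FPKM, those most like the average of the inducible members over the 6 libraries were 2700062C07Rik (r = 0.98), Larp1b (0.98), Numb (0.97), Polr2l (0.97) and Tmem50a (0.97). Those most like Hspa1b were Pcgf1 (r = 0.99), Zgpat (0.98), Eif2d (0.98), Mark4 (0.97) and Pld3 (0.97). With 6 libraries and this many genes, likeness is a description only.

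The wider chaperone system was taken from 8 lists of regulators, co-chaperones and other chaperones. Of their 72 genes, 69 passed the filter, of which limma called 0 at an adjusted p of 0.05. At an unadjusted p under 0.05 it called 3 of the 69, beside 3.69% of all genes tested. Hspbp1 stands in a pair of the lists and was counted once over all. In TonEBP+/- libraries 26 had a higher and 43 a lower mean, with a median log2 difference of -0.03 against 0.00 over all genes tested. The genotypes did not overlap in 9 of the 69, or 13.0%, against 8.52% of all genes tested. Hsf1, the gene of heat shock factor 1, was at 5.39, 5.88 and 5.77 FPKM in WT 1 to WT 3 and at 5.60, 6.96 and 5.57 FPKM in HET 1 to HET 3, high in HET 2 alone (log2 difference 0.07, SE 0.102). Stub1, which encodes the ubiquitin ligase CHIP that acts on Hsp70 clients, had the smallest p among lower regulators (-0.06, SE 0.0716), and 4 of 6 regulators were lower in mean.

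Relatives of Hsp70 and Hsp110 were lower in mean in 4 of 7 genes. Hspa4l, an Hsp110 gene known to respond to osmotic stress, was at 59.8, 60.1 and 59.5 FPKM in the wild-type group and at 52.3, 57.7 and 52.2 FPKM in TonEBP+/- libraries. The groups did not overlap (log2 difference -0.14, SE 0.0665, limma adjusted p = 1). Hspa1l, the neighbour of Hspa1a, had a log2 difference of 0.07 (SE 0.117). Of 12 other J-domain genes, 8 were lower in mean, with Dnajb14 at -0.13 (SE 0.0672) and Dnajb5 at 0.18 (SE 0.112). Of 9 genes for nucleotide exchange and for adaptors between Hsp70 and Hsp90, 7 were lower in mean, with Bag6 at -0.21 (SE 0.144) and Bag4 at 0.05 (SE 0.0749).

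Co-chaperones of Hsp90 were lower in mean in 8 of 13 genes. Ptges3, which encodes the p23 co-chaperone, was at 106, 97.9 and 89.9 FPKM in WT 1 to WT 3 and at 86.9, 87.8 and 88.8 FPKM in HET 1 to HET 3, so that the groups did not overlap but WT 3 lay close to HET 3 (log2 difference -0.15, SE 0.0747, limma adjusted p = 1). Sugt1, an adaptor of Hsp90, had a log2 difference of 0.05 (SE 0.0612), and its groups did not overlap. The chaperonin TRiC and prefoldin, which fold actin and tubulin, were split 7 to 7, with the prefoldin genes Vbp1 at -0.15 (SE 0.0630, unadjusted p = 0.0423) and Pfdn4 at 0.12 (SE 0.0813). Mitochondrial heat shock chaperones were lower in mean in 5 of 6, with Dnaja3 at -0.21 (SE 0.182) and Hspe1 at 0.09 (SE 0.103).

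Of 6 other genes with an Hspb symbol, listed by symbol alone, only 3 passed the filter, Hspb2, Hspb3 and Hspb7 being too low. Hspb8, a partner of Bag3 in selective autophagy, was at 8.84, 11.6 and 7.97 FPKM in the wild-type group and at 11.5, 10.7 and 13.6 FPKM in TonEBP+/- libraries. The groups overlapped through WT 2 (log2 difference 0.31, SE 0.134, unadjusted p = 0.0444, limma adjusted p = 1). Without HET 2 its libraries stood in the same order as those of Hspb1 and of the choroid plexus markers. With HET 2 included these orders differed, so the match is a description only. Hspb6, named after its value was seen, had a log2 difference of 0.31 (SE 0.134, unadjusted p = 0.0468, limma adjusted p = 1) at 1.15 to 2.25 FPKM. Hspb11 had one of -0.09 (SE 0.221).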

How the data were processed

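Libraries were built from 1.3 ug of total RNA, taken up in Trizol, with the NEBNext Ultra II Directional kit, as the labels' protocols state. The submitters' processing notes name TopHat and mm10, and no source used here gives versions, annotation or the program behind the abundances. Per the labels and headers the authors name no unit. The deposited numbers are log2 values and were taken as log2(FPKM + 1), since low values moved in steps set by transcript length (in each library 64.3% to 70.2% of low genes lay within 0.15 of a whole step, on GENCODE M21 genes with 1 transcript). The depth that sets the step was chosen to fit whole steps best on these same genes, so the share is not an independent check. FPKM values and ratios depend on reading the numbers as log2(FPKM + 1).

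A gene entered the fit when 3 or more libraries reached 1 FPKM. limma 3.58.1 in R 4.3.3 was used (genotype only, eBayes with trend and robust options, Benjamini-Hochberg, threshold 0.05). The procedure was also run on simulated data. Its outcome is not given here, so it is no measure of power for differences as small as those of the members. A difference on this scale understates the change of scarce genes. For single members, a two-sided exact permutation test over the 6 libraries was added. Members, classes and lists were chosen with earlier results of these data known. All members are named, and of each pathway list the gene with the smallest p per direction. Likeness was Pearson's r. Positions are from GENCODE M21 (GRCm38, the assembly that mm10 names). Alternatives were quantile and median scaling, a pseudocount of 0.1, no filter or a stricter one (mean of 5 FPKM), the robust option left off, a replicate block, each library left out, other classes, and summed copies. The other classes counted Cryab, Hspb1 and Hsph1 as constitutive and left Hsp90aa1 as inducible. Python 3.11.15 and matplotlib 3.10.9 were used.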

Additional observations from a re-analysis of the deposited data

How the results depend on the processing

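Under every alternative run, 0 of the 10 members passed an adjusted p of 0.05 in limma, the smallest being 0.576 (Dnajb1 without HET 1). Hspa1a, Hspa1b, Dnajb1 and Hspb1 were higher, and Hsp90aa1, Dnaja1 and Cryab lower, in mean in TonEBP+/- libraries in each of their 13 alternatives. With quantile normalization the log2 difference of Hspa8 was -0.037 in place of 0.027, and the cause was not tested. With 1 library left out, the difference ranged from -0.016 to 0.070 for Hspa8, from -0.061 to 0.011 for Hsph1 and from -0.076 to 0.020 for Hsp90ab1, so that their signs turned. The median of the inducible members was -0.031 with the stricter filter, which removes Hspa1a and Hspa1b, and ranged from 0.056 to 0.21 with 1 library left out. That of the constitutive members ranged from -0.039 to 0.020 with 1 library left out. The number of all genes past the threshold ranged from 0 to 8 (8 without HET 1, 1 without WT 1, WT 2 or HET 3), none of them members. The replicate block gave 0 members and 0 genes past the threshold. Same-numbered libraries did not deviate together (r = -0.21, -0.25 and -0.16 for numbers 1 to 3), so the numbers were not taken as pairs. With a pseudocount of 0.1 the difference was 0.42 for Hspa1a and 0.53 for Hspb1. Depth limits Hspa1a, Hspa1b and Hspb1, which rest on at most 93 estimated fragments per library.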
